A study of Drosophila melanogaster with 3 samples.

Results

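The peaks described here are the sites of origin recognition complex subunit 2 (ORC2) that lay on chromosome 4 and on the heterochromatin scaffolds 2LHet, 2RHet, 3LHet, 3RHet and XHet of the Drosophila melanogaster genome. They were chosen by chromosome name alone from the authors' peak list of each of 2 ORC2 ChIP-seq replicates. Of 8970 peaks in replicate 1, 240 (2.68%) lay there, 86 on chromosome 4 and 154 on the 5 Het scaffolds. Replicate 2 had 194 of 6593 (2.94%), with 64 on chromosome 4 and 130 on the Het scaffolds. Scaffold U, which holds unplaced sequence, was left out. All positions are on FlyBase release 5.

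Both replicates came from asynchronous cultures of Kc167, a female cell line of embryonic origin with the genotype se/e at the late embryonic stage. They were separate extractions, immunoprecipitated with a crude rabbit polyclonal serum raised against full-length ORC2. No treatment or second genotype was compared, and the input DNA sample of the labels was not analysed here. The lists hold no read counts, so depth is unknown and the lists' different lengths cannot be set against it. The sources used here do not say how much of the heterochromatic sequence short reads could map.

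ORC is the protein complex that binds DNA at replication origins and loads the replicative helicase there. In Drosophila it shows no strict sequence preference and is known to bind open, active chromatin. It is also known to associate with heterochromatin protein 1, the protein that packages pericentric repeats. Pericentric heterochromatin is rich in satellite and transposon repeats and replicates late in S phase. Chromosome 4, the small dot chromosome, carries heterochromatin marks over much of its length while holding many expressed genes. The Het scaffolds of release 5 are the assembled parts of the heterochromatin next to the centromeres of the arms they are named for.

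A single call on 2RHet stood outside the scale of all other peaks and was set aside. In replicate 2 it ran from 3212924 to 3276381, a width of 63458 bp, and held 74.2% of all the bases that replicate 2 peaks covered on chromosome 4 and the Het scaffolds. The next widest replicate 2 peak on 2RHet was 618 bp. The score of the wide call, 1.196, was the lowest of the whole replicate 2 list. Replicate 1 had 1 peak under it, 60 bp wide at 3268425 to 3268484 with a score of 1.998, and that peak is counted as unshared below. This left 240 peaks in replicate 1 and 193 in replicate 2.

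A smaller share of these peaks than of those on the large arms was found in both replicates. A peak that met a peak of the other replicate over 1 bp or more counts as shared. Over the whole lists, 57.8% of replicate 1 peaks and 80.5% of replicate 2 peaks met that rule. On chromosome 4 it was met by 35 of 86 replicate 1 peaks (40.7%, exact 95% binomial interval 30.2 to 51.8%) and by 36 of 64 replicate 2 peaks (56.2%, 43.3 to 68.6%). The Het scaffolds had 45 of 154 shared peaks in replicate 1 (29.2%, 22.2 to 37.1%) and 47 of 129 in replicate 2 (36.4%, 28.1 to 45.4%). On the 5 large arms, 59.9% (58.9 to 61.0%) and 82.0% (81.0 to 82.9%) were shared, outside the intervals of chromosome 4 and of the Het scaffolds. When each peak of a pair had to cover 50% of the other, 39.3% of replicate 1 and 53.5% of replicate 2 peaks of the whole lists qualified, and the shares were 26.7% and 35.9% on chromosome 4 and 19.5% and 23.3% on the Het scaffolds. Peaks are not independent replicates, so the intervals cover counting error only.

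Among the Het scaffolds, sharing was lowest on 2RHet and 3RHet. On 2RHet 13 of 58 replicate 1 peaks (22.4%, 12.5 to 35.3%) and 13 of 36 replicate 2 peaks (36.1%, 20.8 to 53.8%) were shared. The 3RHet values were 13 of 48 (27.1%, 15.3 to 41.8%) and 13 of 50 (26.0%, 14.6 to 40.3%). On 3LHet, 14 of 39 replicate 1 peaks (35.9%, 21.2 to 52.8%) and 16 of 32 replicate 2 peaks (50%, 31.9 to 68.1%) had a counterpart. The intervals of these scaffolds overlapped in each replicate, so their order is not resolved by these counts. 2LHet had 2 shared peaks of 5 in each replicate, and XHet had 3 of 4 in replicate 1 and 3 of 6 in replicate 2.

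**Figure D1:**
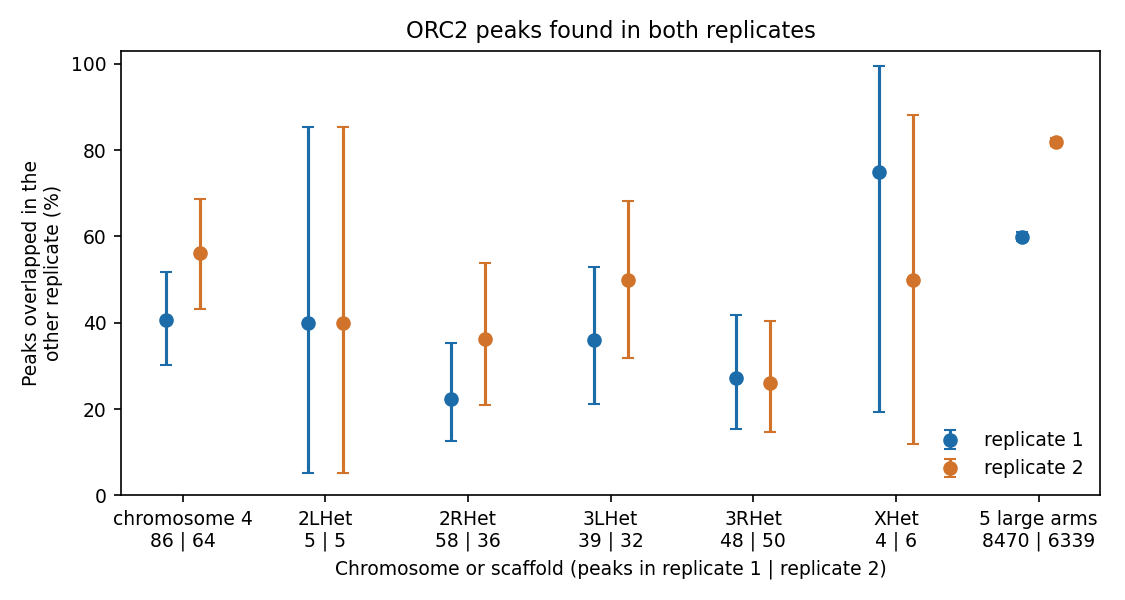
Share of peaks overlapped by at least 1 bp in the other replicate (percent, vertical axis) for each chromosome or scaffold, with the number of peaks in each replicate under its name; points are shares and bars are exact 95% binomial intervals. Both replicates place chromosome 4 (40.7% and 56.2%), 2RHet, 3LHet and 3RHet below the 5 large arms (59.9% and 82.0%), while 2LHet and XHet rest on 4 to 6 peaks and have wide intervals.

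The lower sharing was present among peaks of like width. Width matters because a wide peak meets the 1 bp rule more easily. Chromosome 4 had 13 of 17 shared among replicate 1 peaks of 200 bp and over (76.5%, 50.1 to 93.2%), and the Het scaffolds had 20 of 36 (55.6%, 38.1 to 72.1%), against 87.1% (85.8 to 88.4%) on the large arms. From 100 to under 200 bp the replicate 1 shares were 17 of 29 on chromosome 4 (58.6%, 38.9 to 76.5%) and 17 of 41 on the Het scaffolds (41.5%, 26.3 to 57.9%), against 73.6% (71.9 to 75.3%) on the arms. The Het interval lay below that of the arms in both of these classes, while the chromosome 4 interval reached it.

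In replicate 2 the gap from 100 to under 200 bp was wider. There, 13 of 19 chromosome 4 peaks (68.4%, 43.4 to 87.4%) and 19 of 34 Het peaks (55.9%, 37.9 to 72.8%) were shared, against 97.1% (96.3 to 97.8%) on the arms, above both intervals. At 200 bp and over, all 9 chromosome 4 peaks were shared (66.4 to 100%) and 12 of 18 Het peaks were (66.7%, 41.0 to 86.7%), against 97.4% (96.4 to 98.2%) on the arms. The widest chromosome 4 sites of replicate 2 were thus all found by replicate 1, whereas 6 of 18 Het peaks of that size were not. The chromosome 4 and Het intervals overlapped, so a difference between them is not resolved by these counts.

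Narrow peaks were the least often shared. From 50 to under 100 bp, 5 of 19 replicate 1 peaks on chromosome 4 (26.3%, 9.15 to 51.2%) and 6 of 38 on the Het scaffolds (15.8%, 6.02 to 31.3%) were shared, against 38.1% (35.8 to 40.3%) on the arms. Replicate 2 had 9 of 21 on chromosome 4 (42.9%, 21.8 to 66.0%) and 12 of 37 on the Het scaffolds (32.4%, 18.01 to 49.8%), against 78.5% (76.4 to 80.5%) on the arms. All but the replicate 1 interval of chromosome 4 lay below the arms in this class. None of 21 replicate 1 peaks under 50 bp on chromosome 4 had a counterpart (upper limit of the exact interval 16.1%), and 2 of 39 on the Het scaffolds did (5.13%, 0.627 to 17.3%), against 14.8% (13.1 to 16.8%) on the arms. In replicate 2 these were 5 of 15 on chromosome 4 (33.3%, 11.8 to 61.6%) and 4 of 40 on the Het scaffolds (10%, 2.79 to 23.7%), against 45.8% (43.1 to 48.6%) on the arms. The Het interval of replicate 2 was the only one of these 4 to lie wholly below the arms.

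Width was then held constant over all 4 classes. Had each width class been shared at the rate of the large arms, 54.1% of replicate 1 peaks and 79.0% of replicate 2 peaks on chromosome 4 would have been shared. The observed shares were 13.4 and 22.8 percentage points below those values (-13.4 and -22.8). On the Het scaffolds the shares at the arms' rates were 53.1% and 75.9%, and the observed minus expected differences were -23.9 and -39.5 percentage points. Each of these 4 arm-based values lay outside the interval of the share observed.

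**Figure D2:**
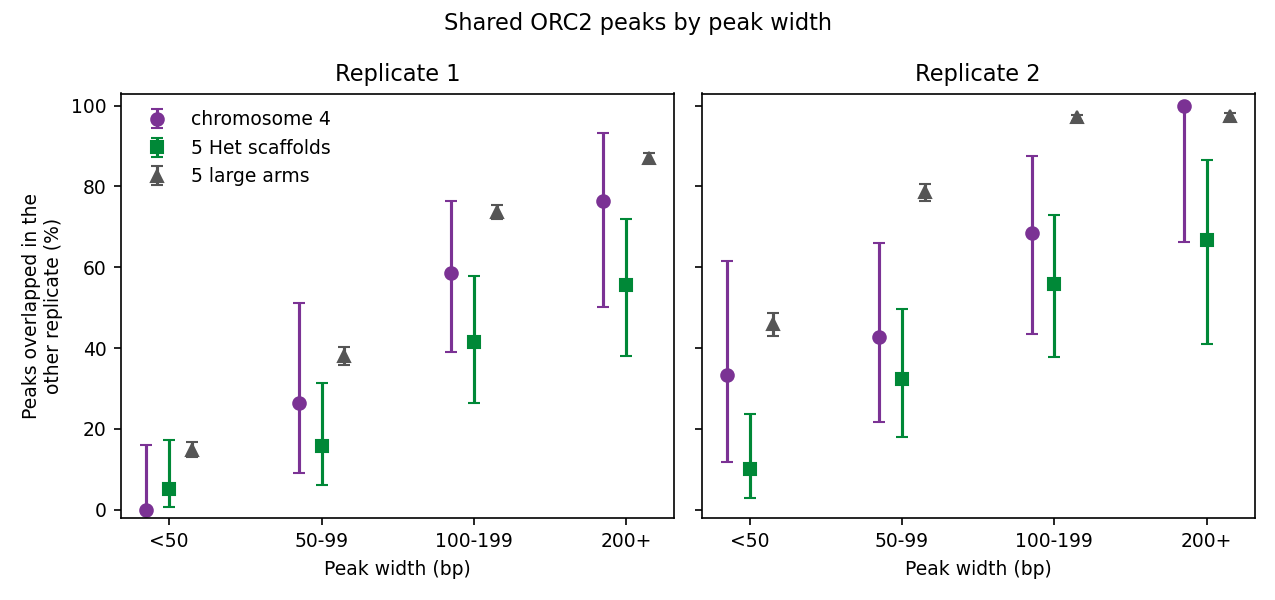
Share of peaks found in the other replicate (percent) in 4 classes of peak width for chromosome 4, the 5 Het scaffolds and the 5 large arms, with replicate 1 on the left and replicate 2 on the right; bars are exact 95% binomial intervals. The Het points lie lowest except in replicate 1 under 50 bp, where chromosome 4 has 0 of 21. The arm points lie highest except in replicate 2 at 200 bp and over, where chromosome 4 has 9 of 9 and the arms have 97.4%.

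Peaks on chromosome 4 and the Het scaffolds were somewhat narrower than on the arms. The median width on chromosome 4 was 102.5 bp in replicate 1 (interquartile range 50.5 to 174 bp, range 2 to 655 bp) and 92.0 bp in replicate 2 (55.2 to 149 bp, range 2 to 394 bp). On the Het scaffolds it was 98.5 bp in replicate 1 (46.2 to 169 bp, range 1 to 624 bp) and 89.0 bp in replicate 2 (43.0 to 142 bp, range 1 to 677 bp). The large arms had medians of 126 and 105 bp. The mean of the replicates' medians was 97.2 ± 7.42 bp on chromosome 4 and 93.8 ± 6.72 bp on the Het scaffolds, against 115.5 ± 14.8 bp on the arms (SD, n = 2). Both arm medians lay above the other 4, but the lower of them, 105 bp in replicate 2, was within the replicate spread of the higher chromosome 4 median, 102.5 bp in replicate 1.

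Shared peaks on chromosome 4 had a median width of 159 bp in replicate 1, against 63.0 bp for unshared peaks, and of 124.5 bp in replicate 2, against 68.5 bp. The order was the same on the Het scaffolds, at 145 bp against 82.0 bp in replicate 1 and 129 bp against 59.5 bp in replicate 2. The 3RHet medians were the closest among scaffolds with more than 10 peaks in replicate 1, at 122 bp for its shared and 88.0 bp for its unshared peaks. Because the 1 bp rule itself favours wide peaks, these differences are given as a description. Counted in bases, shared peaks held 58.7% and 71.5% of the covered sequence on chromosome 4 in replicates 1 and 2, and 46.8% and 53.2% on the Het scaffolds, against 79.9% and 93.8% on the arms.

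**Figure D3:**
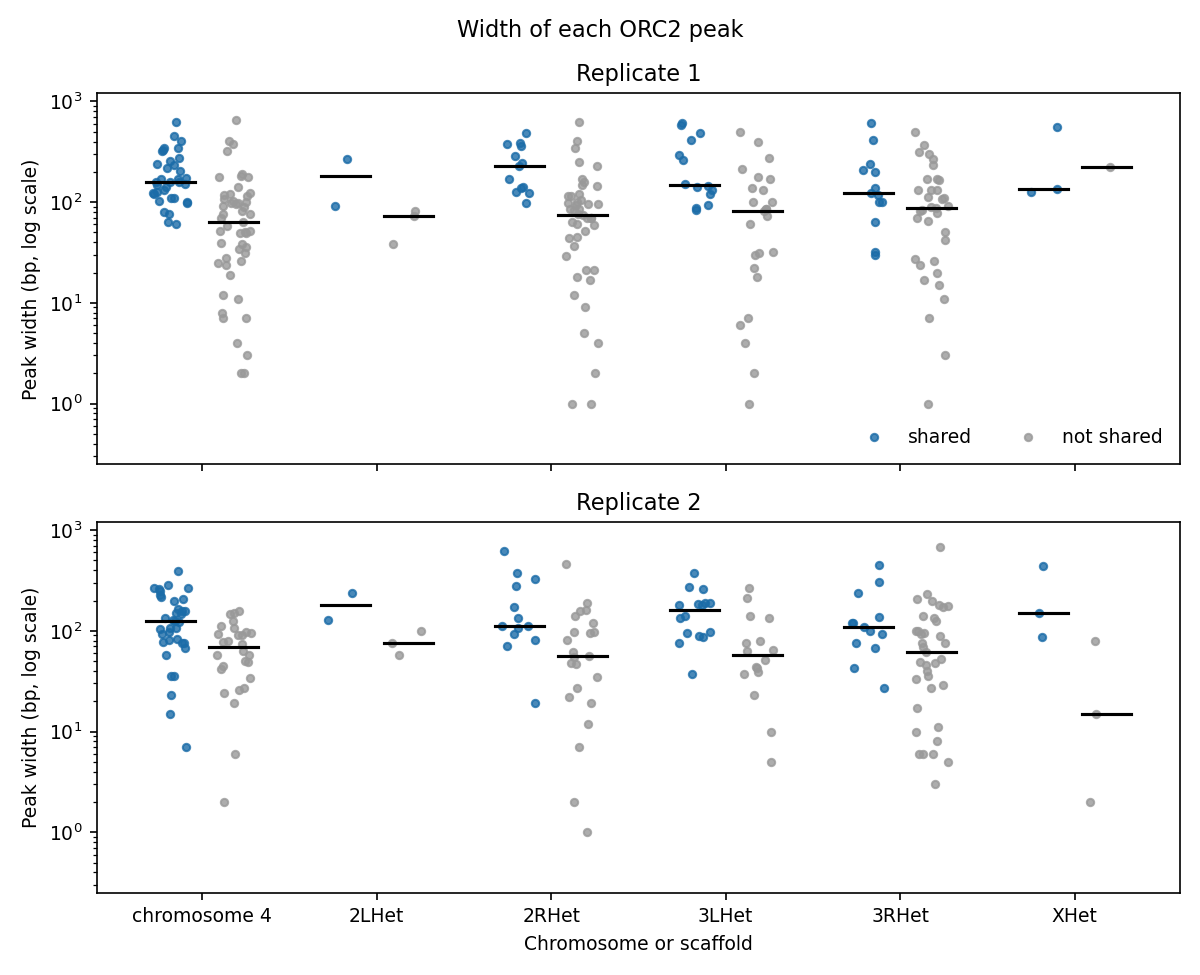
Width of every peak in bp on a log scale, by chromosome or scaffold, with shared peaks on the left of each pair and unshared peaks on the right, for replicate 1 (top) and replicate 2 (bottom); black lines are medians, and the 2RHet peak of 63458 bp is not drawn. On chromosome 4 the shared peaks of replicate 1 start at 61 bp, while unshared peaks reach down to 2 bp and up to 655 bp.

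Several of the widest calls had the lowest score of their scaffold, and some of those were not shared. The score is the authors' value for a peak, of no stated unit. Ranks are within a scaffold and list, pairs are ordered within a scaffold by the mean of their 2 scores, and whether scores are on 1 scale across scaffolds or lists is not known. The widest replicate 1 peak on chromosome 4 (677422 to 678076, 655 bp) was unshared and had the lowest score of the 86 there, 1.35. On 2RHet the widest replicate 1 peak (2348673 to 2349296, 624 bp) was also unshared, at a score of 1.28 that ranked last of 58. The widest replicate 2 peak of 3RHet (610348 to 611024, 677 bp) was unshared and ranked last of 50 at 1.27. On 3RHet the widest replicate 1 peak (412990 to 413607, 618 bp, score 1.34) ranked last of 48 but overlapped a replicate 2 peak.

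Other wide calls were found by both replicates. On chromosome 4 the replicate 1 peak from 578107 to 578738 (632 bp, score 2.37) overlapped 2 replicate 2 peaks, at 577901 to 578162 and 578401 to 578668, with scores of 1.61 and 3.28. The widest replicate 2 peak there, 394 bp from 89215 to 89608, lay inside a replicate 1 peak of 455 bp at 89189 to 89643. A replicate 1 peak of 407 bp (87628 to 88034) had a 288 bp counterpart (87704 to 87991), and a replicate 2 peak of 267 bp (715744 to 716010) lay inside one of 348 bp. The 408 bp peak at 1000596 to 1001003 had no counterpart. On 3LHet the widest calls, 614 bp at 2242538 to 2243151 in replicate 1 and 373 bp at 2242537 to 2242909 in replicate 2, marked the same site, where the scores were 1.82 and 1.35 and the replicate 2 score was the lowest of 32. Replicate 1 peaks of 3LHet at 1396469 to 1397056 and 2190759 to 2191177 each overlapped 2 replicate 2 peaks. The widest replicate 2 peak of 2RHet (618 bp, 2346554 to 2347171) overlapped a replicate 1 peak of 385 bp, and 2LHet had its widest calls of 271 and 235 bp at a shared site (170655 to 170951).

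The strongest reproducible sites on chromosome 4 were peaks of 77 to 255 bp in both replicates. Of its shared peaks, 34 in each list formed pairs of 1 peak from each replicate. The highest mean score was at 230696 to 230912, with 10.6 in replicate 1 (rank 1 of 86) and 9.72 in replicate 2 (rank 3 of 64). The next site, at 64350 to 64509, scored 8.67 and 7.87, and its limits differed by 1 bp at each end. It lay near the left end of the region with peaks, which began at 63576 in the combined lists. At 717439 to 717560 the scores were 7.45 and 8.64, in a run of sites described below. Replicate 1 scored higher at 887591 to 887845 (9.17 in replicate 1, 5.82 in replicate 2), and replicate 2 scored higher at 152681 to 152777 (6.01 in replicate 1, 8.64 in replicate 2).

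The next 5 sites by mean score were spread from 226584 to 1234560. At 328572 to 328782 the scores were 5.78 and 6.87, and the peaks had only 66 bp in common. The site at 436199 to 436441 scored 4.87 and 6.85. Near the right end of the covered region, sites at 1234392 to 1234560 (6.66 and 5.04) and 1202645 to 1202819 (5.42 and 6.16) were the last 2 shared sites of the chromosome. The site at 226584 to 226734 (6.495 and 4.201) lay next to the highest-scoring one. Score order was thus only roughly kept between replicates among these 10 sites, whose ranks ran from 1 to 19 in replicate 1 and from 3 to 19 in replicate 2.

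Sites occurred along all of chromosome 4 that the lists covered, with the lowest shares between 319055 and 638109. In windows of 100 kb, replicate 1 had 3 to 12 peaks (median 6) and replicate 2 had 1 to 10 (median 5), and each of the 13 windows held at least 1 shared peak in both. The fullest window in each replicate ran from 500001 to 600000, with 12 and 10 peaks, but only 3 and 4 of them were shared. Both statements depend on where the windows start. With windows shifted by 50 kb, the one from 650001 to 750000 held 11 and 9 peaks, the most in each list and equalled by 1 other window in replicate 1. Of these, 6 were shared in each list, while the one from 750001 to 850000 held 4 and 2 peaks with none shared. In the unshifted windows, those from 1 to 100000, 200001 to 300000 and 700001 to 800000 held 5 shared peaks each in both lists. With the covered length cut into 4 equal parts, 7 of 25 replicate 1 peaks (28.0%, 12.1 to 49.4%) and 8 of 24 replicate 2 peaks (33.3%, 15.6 to 55.3%) were shared between 319055 and 638109. Between 1 and 319054 these were 11 of 19 (57.9%, 33.5 to 79.7%) and 11 of 14 (78.6%, 49.2 to 95.3%). The intervals of these parts overlapped in both replicates.

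The longest stretch of chromosome 4 that neither list entered was 78.6 kb, from 250003 to 328571, followed by 67.6 kb from 739451 to 807097. In replicate 1 alone the longest was 84.1 kb (739451 to 823596), where replicate 2 had 2 peaks, and in replicate 2 alone it was 97.7 kb (230905 to 328571), which held 1 replicate 1 peak. Between shared peaks the longest was 115 kb, from 739451 to 854874.

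The pooled Het scaffolds had few sites per length. Their peak density was 17.9 per Mb in replicate 1 (exact 95% Poisson interval 15.2 to 20.9) and 14.96 in replicate 2 (12.5 to 17.8). Chromosome 4 had 67.4 (53.9 to 83.2) and 50.1 (38.6 to 64.0), against 71.2 and 53.3 on the large arms. The mean over replicates was 58.8 ± 12.2 per Mb on chromosome 4 and 16.4 ± 2.05 on the Het scaffolds, against 62.3 ± 12.7 on the arms (SD, n = 2). Chromosome 4 and the arms thus differed by less than the spread between replicates, and the pooled Het scaffolds lay below both by more. XHet, with only 4 and 6 peaks, had 47.1 (12.8 to 121) and 70.7 (25.9 to 154) peaks per Mb (58.9 ± 16.7, SD, n = 2). The other Het scaffolds had means of 14.3 to 19.5 per Mb. The XHet intervals overlapped those of 2LHet and 3RHet in both replicates. They overlapped those of 2RHet and 3LHet in replicate 1 only. The XHet length used, 0.0849 Mb, ended at its last peak, so whether XHet differs from the other Het scaffolds is not resolved. The length of a scaffold here is the last base that a peak of either list reached, the wide 2RHet peak included, so these densities may be too high where sequence runs on beyond the last peak. The share of the length covered by peaks was 0.934% and 0.549% on chromosome 4 and 0.257% and 0.175% on the Het scaffolds, against 1.29% and 0.762% on the arms.

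On 2RHet the highest-scoring shared site was at 3197910 to 3198031, with 7.02 in replicate 1 (rank 1 of 58) and 6.39 in replicate 2 (rank 2 of 36). A site at 466391 to 466525 scored 4.21 and 4.29, and one at 1623010 to 1623178 scored 4.68 and 3.54. A shared site also lay at the very start of the scaffold, from 1 to 302, with scores of 1.65 and 1.66. No shared peak lay in the 861 kb from 471900 to 1333147, where the lists had 16 unshared peaks. Replicate 2 alone had no peak over 690 kb, from 635142 to 1325352, where replicate 1 had 8. The longest stretch empty in both lists was 278 kb, from 2351174 to 2629560.

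On 3LHet the shared sites lay in a few places. Among pairs of 1 peak from each replicate, the highest mean score was at 601489 to 601678, with 5.16 in replicate 1 and 5.74 in replicate 2. It was followed by pairs at 2397662 to 2397843 (4.74 and 3.67) and 2386840 to 2386926 (4.98 and 3.23). This order leaves out the sites where 1 replicate 1 peak met 2 of replicate 2. Of these, 1396469 to 1397056 had the highest replicate 1 score of the scaffold, 5.30, with 2.93 and 4.36 in replicate 2. The other, 2190759 to 2191177, scored 3.85 in replicate 1, with 5.44 and 2.28 in replicate 2. From 1864852 to the end of the covered length, 10 of 20 replicate 1 peaks (50%, 27.2 to 72.8%) and 11 of 18 replicate 2 peaks (61.1%, 35.7 to 82.7%) were shared. Between 621618 and 1243234, none of 8 replicate 1 and none of 3 replicate 2 peaks were, with upper limits of 36.9% and 70.8%. The longest stretch empty in both lists was 325 kb, from 1397057 to 1722417.

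On 3RHet the shared site with the highest scores was at 2107129 to 2107329, with 6.38 and 4.09, ranking second in each list. Sites at 2378130 to 2378541 (4.04 and 3.43) and 1823971 to 1824225 (4.06 and 3.15) came next. No shared peak lay over 1011.6 kb between 694315 and 1705930, where the lists had 20 unshared peaks together. Neither list had a peak from 909136 to 1129173, a stretch of 220 kb. 3RHet had nearly the same number of peaks in both replicates, 48 and 50, and the lowest replicate 2 share of the Het scaffolds.

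The small scaffolds held few peaks. 2LHet had shared sites at 32886 to 33014 (scores 2.91 and 3.02) and 170655 to 170951 (3.24 and 2.24), with 123 kb between 34775 and 157568 empty in both lists. XHet had shared sites at 57557 to 57707 (2.02 and 2.31), 76256 to 76817 (2.97 and 3.64) and 84755 to 84880 (2.73 and 2.72). Its remaining replicate 1 peak was at 75113 to 75337 with a score of 1.48, and the remaining replicate 2 peaks were at 1844 to 1858, 12587 to 12588 and 48598 to 48676, with scores of 2.42, 2.91 and 2.31. The shared XHet sites thus all lay at 57557 or beyond, and the empty stretch from 12589 to 48597 was 36.0 kb.

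Peaks on chromosome 4 and on the pooled Het scaffolds lay farther from their nearest neighbour than peaks on the arms, but those of 3LHet did not beyond the spread between replicates. On chromosome 4 the median distance between nearest midpoints was 3551 bp in replicate 1 and 5434 bp in replicate 2. The Het scaffolds had 4011 and 7062.5 bp, against 1327.5 and 2238 bp on the large arms. The upper quartile of replicate 1 distances was 6869 bp on chromosome 4 and 20113 bp on the Het scaffolds, against 4602 bp on the arms. Medians of chromosome 4 and the Het scaffolds were thus close in replicate 1, while the longest distances of that replicate were 41653 bp on chromosome 4 and 237734 bp on the Het scaffolds. The mean of the replicates' medians was 4492 ± 1332 bp on chromosome 4 and 5537 ± 2158 bp on the Het scaffolds, which differ by less than the spread between replicates, against 1783 ± 644 bp on the arms (SD, n = 2). On 3LHet the medians were 1649.5 and 2566 bp (2108 ± 648 bp), within the replicate spread of the arms, and the 2LHet median of replicate 2, over 5 peaks, was 1775 bp, against 2238 bp on the arms. Peaks per length were lower on the pooled Het scaffolds than on the arms, and the part of that in the Het spacing was not tested. Chromosome 4 and the arms differed in peaks per length by less than the spread between replicates.

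**Figure D4:**
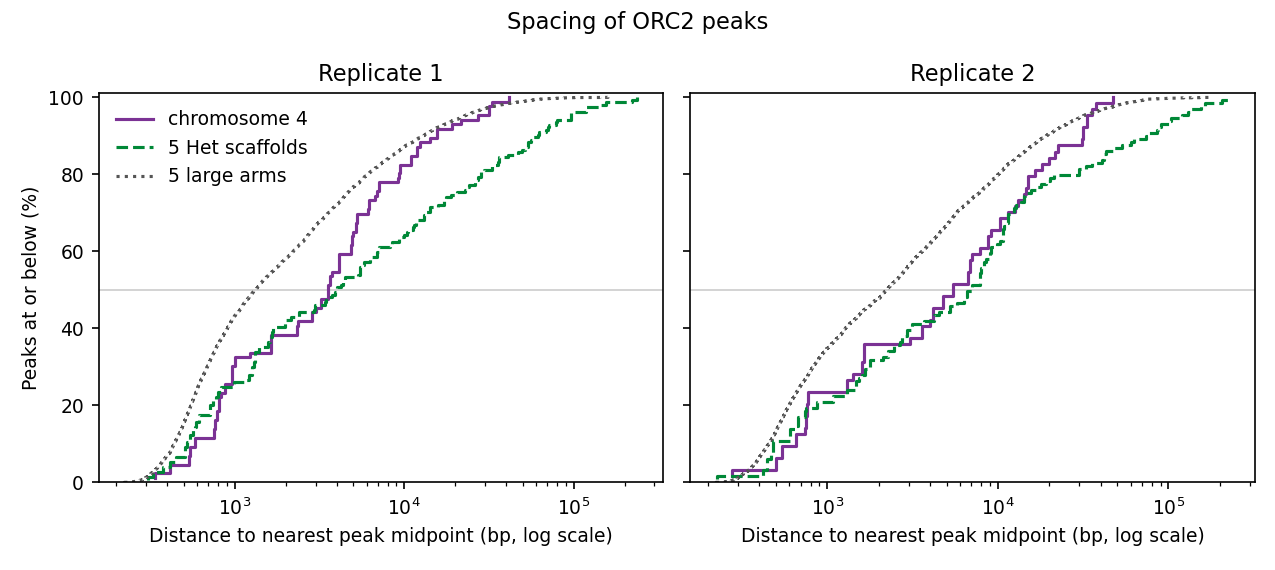
Cumulative share of peaks (percent) against the distance from a peak's midpoint to the nearest other midpoint in bp on a log scale, for chromosome 4, the 5 Het scaffolds and the 5 large arms, in replicate 1 (left) and replicate 2 (right); the grey line marks 50%. The chromosome 4 and Het curves cross the grey line at 3551 and 4011 bp in replicate 1 and at 5434 and 7062.5 bp in replicate 2, to the right of the arms at 1327.5 and 2238 bp.

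Many peaks nevertheless stood in short runs. Peaks whose midpoints were less than 5 kb from the next were joined into chains. On chromosome 4, 32 of 86 replicate 1 peaks (37.2%) and 19 of 64 replicate 2 peaks (29.7%) were in chains of 3 or more. The Het scaffolds had 54 of 154 (35.1%) and 25 of 129 (19.4%), against 55.7% and 43.1% on the large arms. All 5 such chains of replicate 2 on chromosome 4 overlapped a replicate 1 chain of 3 or more, while 5 of 9 replicate 1 chains overlapped one of replicate 2. On the Het scaffolds these were 4 of 7 and 4 of 12, and on the arms 87.8% of 640 and 53.9% of 1038.

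The chromosome 4 runs found in both replicates spanned from 2.387 to 7.225 kb. Replicate 1 chains that met no replicate 2 chain spanned a like range, from 2.281 to 9.256 kb. The longest by peak number was a replicate 2 chain of 5 peaks from 84110 to 90013, with scores from 2.54 to 10.5 and 3 shared peaks. The replicate 1 chain there had 4 peaks from 87628 to 90014, again 3 of them shared, with scores from 2.75 to 4.78. A run at 715689 to 718316 had 4 peaks in replicate 1 and 3 in replicate 2, all 3 of which were shared. Another at 200052 to 202619 had 4 peaks in each replicate with 3 shared. Runs at 522118 to 529397 and 1047806 to 1054915 had 2 shared peaks and 1 in each list, and no chain of the chromosome passed 5 peaks. A replicate 1 chain of 4 was the most in that list and occurred 5 times.

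Of the 4 Het runs that both replicates found, 3 lay on 3LHet. The largest had 9 replicate 1 peaks from 2395303 to 2409472 and 5 replicate 2 peaks from 2392644 to 2398328, with 4 shared in each list. Those 4 were among the first 5 peaks of the replicate 1 run, and the peaks after 2398428 had no counterpart. A run of 6 replicate 1 peaks at 601489 to 607278 and 4 replicate 2 peaks at 601540 to 608849 had 3 shared in each. All 3 peaks of each replicate were shared in the run at 2241357 to 2243151.

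The remaining one was on 2RHet, with 3 peaks in each replicate between 1621662 and 1623573 and 2 of them shared. On 2RHet 7 replicate 1 peaks lay from 466420 to 474518, and 2 of them were shared. The largest chains of 3RHet had 5 peaks in replicate 1 (1894880 to 1901157) and 4 in replicate 2 (608988 to 614424), lay in different places and held no shared peak. None of its 4 replicate 1 chains of 3 or more overlapped one of the 2 in replicate 2. 2LHet and XHet had no chain of 3.

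Over the pooled Het scaffolds, peaks in chains were more often shared than single peaks, with the largest differences on 3LHet and 2RHet. Of Het peaks in chains of 3 or more, 20 of 54 were shared in replicate 1 (37.0%, 24.3 to 51.3%) and 15 of 25 in replicate 2 (60%, 38.7 to 78.9%). Het peaks with no neighbour within 5 kb were shared in 11 of 72 cases (15.3%, 7.88 to 25.7%) and 16 of 72 (22.2%, 13.3 to 33.6%). In replicate 2 these intervals did not overlap, and in replicate 1 they overlapped by less than 2 percentage points. On 3LHet 10 of 18 in chains (55.6%, 30.8 to 78.5%) and 2 of 15 single peaks (13.3%, 1.66 to 40.5%) were shared in replicate 1. In replicate 2 these were 10 of 12 (83.3%, 51.6 to 97.9%) and 2 of 12 (16.7%, 2.09 to 48.4%). On 2RHet they were 7 of 21 (33.3%, 14.6 to 57.0%) and 2 of 27 (7.41%, 0.910 to 24.3%) in replicate 1. Replicate 2 had 3 of 6 (50%, 11.8 to 88.2%) and 5 of 24 (20.8%, 7.13 to 42.2%) there. The 2RHet intervals overlapped in both replicates, and those of 3LHet in replicate 1 only. On 3RHet they were close, with 3 of 15 in chains (20%) and 4 of 25 single peaks (16%) in replicate 1, and 2 of 7 (28.6%) and 6 of 29 (20.7%) in replicate 2. On chromosome 4 the shares in chains were 50% (31.9 to 68.1%) and 63.2% (38.4 to 83.7%), and those of single peaks were 36.7% (19.9 to 56.1%) and 45.5% (28.1 to 63.6%), with overlapping intervals. On the large arms peaks in chains had 59.0% and 83.7%, and single peaks had 61.8% and 79.9%. Pooled Het peaks in chains were also wider, with medians of 120.5 and 94.0 bp in replicates 1 and 2, against 85.0 and 75 bp for single peaks. Chain peaks were the wider on 3LHet in both replicates and on 2RHet in replicate 1. On 2RHet in replicate 2 they had 76 bp, against 89 bp for single peaks. On 3RHet they had 64 bp against 100 bp in replicate 1 and 76 bp against 76 bp in replicate 2. The part of width in the difference in sharing was not tested. This comparison was chosen after the values were seen.

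Where a peak of each replicate overlapped, the replicates placed it at nearly the same position. Midpoints differed by a median of 13.8 bp over 34 pairs on chromosome 4 and 25.5 bp over 43 pairs on the Het scaffolds, against 17.0 bp on the arms. The rule of overlap limits how far they can differ. The replicate 1 peak was the wider in 29 of 34 pairs on chromosome 4 (median width ratio of replicate 1 over replicate 2 1.35) and in 30 of 43 on the Het scaffolds (1.15), against 79.6% of 4887 pairs on the arms (1.27).

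Scores of paired peaks were similar in both replicates. The score in replicate 1 over that in replicate 2 had a median of 1.10 on chromosome 4 (range 0.695 to 1.64) and 1.17 on the Het scaffolds (0.565 to 1.90), against 1.03 on the arms (0.204 to 2.18). Scores were within 1.5 times of each other in 27 of 34 pairs on chromosome 4 (79.4%) and 37 of 43 on the Het scaffolds (86.0%), against 93.5% on the arms. On 3RHet 12 of 13 pairs scored higher in replicate 1. Across the 34 pairs of chromosome 4 Spearman's rho was 0.781 and Pearson's r of log2 scores was 0.789. For 2RHet (13 pairs), 3LHet (12) and 3RHet (13) rho was 0.835, 0.846 and 0.907. These describe sites within the same 2 libraries, and the sources used here do not say whether 1 input served both lists as control.

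**Figure D5:**
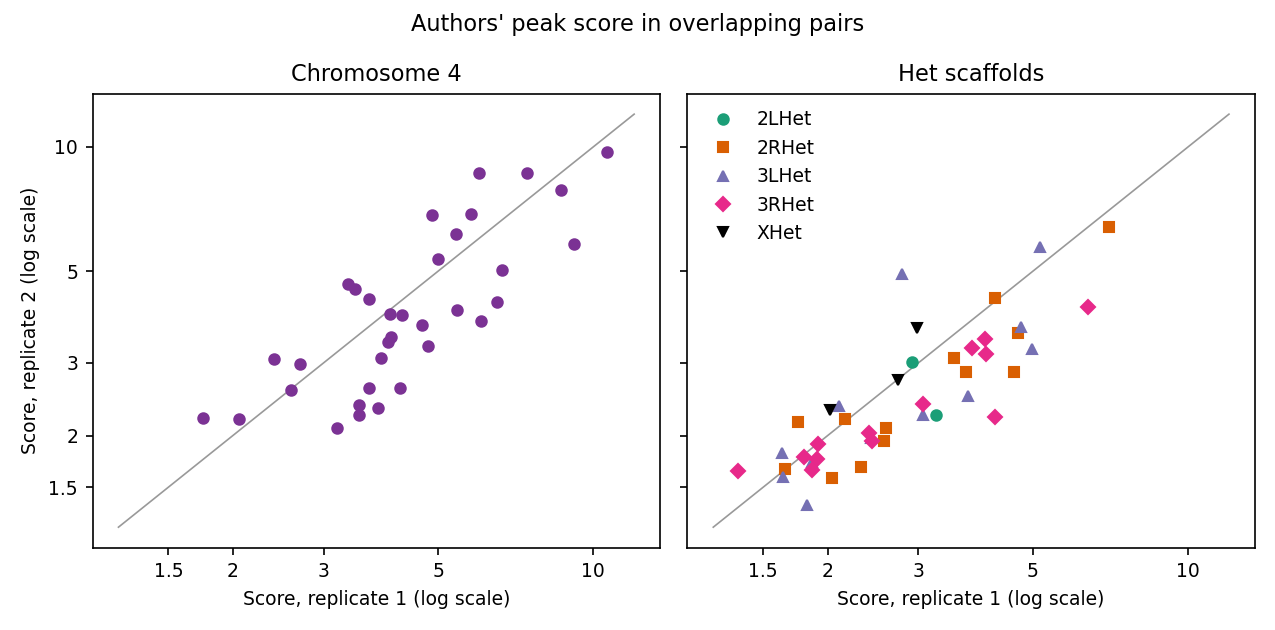
The authors' score in replicate 1 (horizontal, log scale) and replicate 2 (vertical, log scale) for each pair of overlapping peaks, 34 on chromosome 4 (left) and 43 on the Het scaffolds (right, by scaffold); the grey line marks equal scores. Points follow the line on both sides, with chromosome 4 ratios of replicate 1 over replicate 2 from 0.695 to 1.64 and 12 of 13 points of 3RHet below the line.

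Pairs on chromosome 4 came mostly from the upper part of the score range. Of the 34, 22 ranked in the upper 50% of chromosome 4 scores in both lists and 6 in the lower 50% of both. Het pairs were more evenly split, with 19 of 43 in the upper and 16 in the lower 50% of their scaffold in both lists. On the large arms, 2328 of 4887 pairs were in the upper and 1460 in the lower 50% of their arm in both. On chromosome 4 the median score of shared peaks was 4.05 in replicate 1, against 2.75 for unshared peaks, and 3.74 in replicate 2, against 2.69. Shared peaks also scored higher on the large arms, at 2.93 against 2.17 in replicate 1 and 2.81 against 2.30 in replicate 2. Shared peaks of 2RHet had a median of 2.60 in replicate 1, against 2.41 for unshared ones, and of 2.19 in replicate 2, against 2.34. For 3RHet the shared and unshared medians were 2.43 and 2.20 in replicate 1, while replicate 2 had 2.03 and 2.07. In replicate 2 the shared peaks of 2RHet and 3RHet thus scored no higher than the unshared ones. On 3LHet the shared median was 2.92 in replicate 1 and 2.42 in replicate 2, against an unshared median of 1.98 in each.

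Some of the highest scores belonged to narrow peaks that the other replicate lacked. On chromosome 4 the top replicate 2 score, 13.0, was on a 57 bp peak at 201787 to 201843, inside the shared run near 200052, and the second, 10.5, was on a 45 bp peak at 84110 to 84154. Peaks at 488043 to 488076 (9.66, 34 bp) and 817357 to 817430 (8.68, 74 bp) took ranks 4 and 5 of 64, and a 6 bp peak at 1000404 to 1000409 (4.48) followed at rank 17. The highest-scoring unshared replicate 1 peaks were at 1134054 to 1134130 and 1081487 to 1081588, which had the same score of 7.89, and at 968434 to 968522 (7.76). A 2 bp peak at 510140 to 510141 (5.96) and a 34 bp peak at 221657 to 221690 (5.92) came next. In this list 18 of the 86 peaks (20.9%) had a score that another peak of the chromosome also had, and 2.63 was on 4 peaks, none of them shared. Repeated scores were more common on the large arms, at 44.3% of replicate 1 peaks. In replicate 2 they were 6.25% on chromosome 4 and 41.3% on the arms. Scores were compared within a chromosome or arm, so a repeat is easier to meet where more peaks lie. The 5 arms held 8470 replicate 1 peaks, against 86 on chromosome 4, and the part of peak number in this difference was not tested. The distance from the 10 unshared peaks named here to the nearest peak of the other replicate ran from 187 to 11850 bp. Some of them thus lay close to a site of the other list.

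The Het scaffolds also had high scores on unshared peaks, picked here by score over all 5 scaffolds although these may differ in scale. Replicate 2 had 14.6 on a 62 bp peak of 2RHet (1623512 to 1623573), 334 bp from a replicate 1 peak, and 13.8 on a 23 bp peak of 3LHet (459525 to 459547), 95652 bp from one. Each of these was the highest of its scaffold. The others were 9.52 on 3LHet (593650 to 593693, rank 2 of 32) and 6.19 and 5.96 on 2RHet (1902399 to 1902495 and 2775636 to 2775730, ranks 3 and 4 of 36). In replicate 1 the top unshared scores were 8.26 on 3RHet (1901080 to 1901157), the highest of that scaffold, and 6.14 on 2RHet (1621662 to 1621755). The next 3, also on 2RHet, scored 4.51, 4.47 and 4.17, at 1364962 to 1364979, 1290977 to 1291072 and 1334880 to 1334916. Most of the highest scores were nonetheless shared on chromosome 4 and 3LHet. Of the 10 highest in each list, 7 and 6 were shared on chromosome 4 in replicates 1 and 2, 7 and 7 on 3LHet, 4 and 4 on 2RHet, and 6 and 4 on 3RHet. On the pooled large arms these were 6 and 9, and over all peaks of the whole lists 57.8% and 80.5% were shared. The 10 highest are a larger part of the 39 and 32 peaks of 3LHet than of the 86 and 64 of chromosome 4. These counts are therefore not alike between sequences.

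Unshared peaks of the Het scaffolds were less often close to a peak of the other replicate than those of the arms. Within 1 kb of one lay 15 of 51 unshared replicate 1 peaks on chromosome 4 (29.4%, 17.5 to 43.8%) and 10 of 28 in replicate 2 (35.7%, 18.6 to 55.9%). On the Het scaffolds these were 21 of 109 (19.3%, 12.3 to 27.9%) and 11 of 82 (13.4%, 6.89 to 22.7%), against 39.1% (37.5 to 40.8%) and 48.3% (45.3 to 51.2%) on the large arms. The Het intervals lay below those of the arms, and the chromosome 4 intervals overlapped them. More than 10 kb away were 12 of 51 and 7 of 28 on chromosome 4, and 52 of 109 and 40 of 82 on the Het scaffolds. On the large arms these were 587 of 3396 and 181 of 1144. Peak density, which was lower on the Het scaffolds, sets how near another peak can be by position alone, and its part in this was not tested.

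The list of the whole series held 81 of its 5159 peaks on these sequences, 35 on chromosome 4 and 46 on the Het scaffolds. Each of the 81 ran from the lowest start to the highest end of overlapping replicate peaks, so that list is not a further measurement, and 1 of them is the wide 2RHet peak. The genes at these sites were not analysed here, and no sequence of them is shown, because no release 5 genome or annotation was used and the available gene table follows release 6.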

How the data were processed

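The values used were peak positions and scores in 2 ORC2 ChIP-seq replicates. Peaks are on FlyBase release 5, per the file headers, and the source column names PeakSeq. The deposited score is the authors' own value per peak, with no unit stated. The sources used here do not give the aligner, PeakSeq version, threshold or read depth.

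Peaks were selected by chromosome name. Start and end positions were counted from 1, both ends included. The 2RHet peak over 60 kb was set aside. Sharing required 1 bp. Shares have exact (Clopper-Pearson) 95% binomial intervals and densities exact 95% Poisson intervals. Both cover counting error of peaks only. With 2 samples of 1 group, no test across samples was possible, and no p-value is given.

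Named peaks are the 10 highest-scoring pairs and 5 widest peaks per replicate on chromosome 4, the 3 highest-scoring pairs and widest peak per Het scaffold, the 5 highest-scoring unshared peaks per replicate on chromosome 4 and over all Het scaffolds, longest empty intervals, largest chains and all XHet peaks. Additional sites in runs, at scaffold ends and in multiple overlaps were named after their values were seen. The members and lists were chosen with earlier results of these data known. The planned gene and sequence steps were not run.

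Analyses used Python 3.11.15, scipy 1.17.1, pandas 2.3.3 and numpy 2.4.6, and plots matplotlib 3.10.9. All 11 checks on simulated lists passed.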

Additional observations from a re-analysis of the deposited data

How the results depend on the processing

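Of 64 values recomputed under alternatives for 17 results, 46 stayed within the interval or the spread between replicates of the main value, 18 moved beyond it and 0 changed sign. Some of the 46 were fixed in advance. A value with a replicate left out always lies within the spread of the 2, and the wide 2RHet peak cannot alter chromosome 4. Only the differences from the arms' rates could change sign, because all other values cannot be negative. These counts are therefore no measure of robustness. With 50% reciprocal overlap the shared percentages were 26.7 and 35.9 on chromosome 4 and 19.5 and 23.3 on the Het scaffolds (replicates 1 and 2). The higher-scoring 50% within each scaffold gave 65.1 and 71.9% on chromosome 4 and 37.2% in replicate 1 on the Het scaffolds. Peaks of at least 50 bp gave 48.3% in replicate 2 on the Het scaffolds, and densities of 44.7 (chromosome 4) and 11.8 (Het) per Mb. Adding U lowered the replicate 1 Het share to 18.1%, while the replicate 2 share went from 36.4% to 40.7%, within the interval of its main value. Joining peaks with gaps under 1 kb gave 13.9 peaks per Mb on the Het scaffolds and nearest-neighbour medians of 6517 bp on chromosome 4 and 9758 bp on the Het scaffolds. On chromosome 4 this distance was 6870 bp for shared peaks and 6915 bp in the joined list. Leaving out peaks under 10 bp gave a median Het width of 102 bp. The fullest chromosome 4 window of 200 kb held 18 peaks, by its size. The cause of the other changes was not tested, apart from those that follow from counting fewer or joined peaks.

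Leaving out replicate 1 or replicate 2 gave densities of 50.1 to 67.4 per Mb on chromosome 4 and 14.96 to 17.9 on the Het scaffolds, median widths of 92.0 to 102.5 bp and 89.0 to 98.5 bp, and nearest-neighbour medians of 3551 to 5434 bp and 4011 to 7062.5 bp. The fullest window held 10 to 12. No paired analysis was possible because the result comes from no test and only 1 group has peak lists. Depth is unknown, so a site missing from 1 list cannot be told from one below that library's detection limit.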
